A study of Homo sapiens with 4 samples.

Results

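The translation initiation factor genes of HEK-293 cells were examined after siRNA against ZSCAN5A or ZSCAN5B. Members were the rows whose gene symbol begins with EIF1 to EIF6, on assembled chromosomes, leaving out the Argonaute genes once named EIF2C and the eIF2 kinases named EIF2AK. The rule uses names only and found 54 rows with 52 gene symbols among 24934 rows with 23284 symbols. There were 5 rows of eIF1, 10 of eIF2, 17 of eIF3, 16 of eIF4, 5 of eIF5 and 1 of eIF6, and both EIF3C and EIF3CL stood on 2 rows each. HEK-293 is an established cell line from human embryonic kidney. Cells received 10 nM of siRNA for 48 h and mRNA was sequenced from 4 libraries, with 1 library each for ZSCAN5A siRNA #4 (si4), ZSCAN5A siRNA #5 (si5), ZSCAN5B siRNA #1 (si1) and a scrambled negative control. All 4 shared the parental line and the transfection reagent, no gene was deleted, and ZSCAN5A and ZSCAN5B encode zinc finger transcription factors. The values are FPKM (fragments relative to the length of the transcript and the depth of the library), which are per length and so can be set beside each other between genes.

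Initiation factors bring the ribosome, the initiator tRNA and the mRNA together. eIF2 carries the initiator tRNA to the small ribosomal subunit and is recharged with GTP by eIF2B, eIF3 is the large complex that holds the small subunit and its partners, and the eIF4 factors recognise the cap and unwind the leader of the mRNA. eIF1 and eIF1A govern the choice of start codon, eIF5 and eIF5B act when the subunits join, and the eIF4E-binding proteins hold the cap-binding protein inactive. Many mRNAs of the translation machinery begin with a C followed by a run of pyrimidines (a terminal oligopyrimidine tract), through which their translation responds to growth signals.

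The siRNAs are shown because each of them can also act on mRNAs that match its seed. Each line gives the target 5′ to 3′ in the sense of the mRNA, and the capitals mark the 7 bases that pair with bases 2 to 8 of the guide strand.
si4: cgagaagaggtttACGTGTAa
si5: aagctagtcatccACAAGAGa
si1: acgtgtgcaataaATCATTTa
The si1 seed site stood in the 3′ UTR of 11 of 49 member genes with an annotated 3′ UTR, the si5 site in 7 and the si4 site in 3. Over 10783 expressed genes the si1 site was in 23.8% of 3′ UTRs, the si5 site in 12.1% and the si4 site in 3.44%. EIF4EBP2, which encodes an eIF4E-binding protein and was the member furthest below the control with si1, held 2 si1 sites and 1 si5 site in a 3′ UTR of 6871 bases. They lie on the plus strand of GRCh37, and the capitals mark the seed site.
EIF4EBP2 si1 site at chr10:72186668-72186694: gccggagtccATCATTTagccagtata
EIF4EBP2 si1 site at chr10:72187563-72187589: atgcttgataATCATTTggccacactg
EIF4EBP2 si5 site at chr10:72186029-72186055: tttttctgagACAAGAGttgcgccctg
Of 518 expressed genes with a 3′ UTR of similar length (the shorter at least 0.8 of the longer), 67.6% held an si1 site and 37.6% an si5 site, so such sites are common at this length. A match is a description and does not show a siRNA acting there.

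The starts of several members are shown because many mRNAs of the translation machinery begin with an oligopyrimidine tract. Promoters from RefSeq (GRCh38.p14) were found for 43 of the 52 genes, and the positions below are those of an exact match in GRCh37. Each line runs from 10 bases before the annotated start to the 20 bases from the start on, 5′ to 3′ on the gene's strand, and the capitals mark a C followed by at least 5 pyrimidines that begins within 10 bases of the start.
EIF3D (chr22:36925194-36925223, minus): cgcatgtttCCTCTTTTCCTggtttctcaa
EIF3F (chr11:8008874-8008903, plus): cttccgCCTCCTTCTTTCTCgacaagatgg
EIF3K (chr19:39109818-39109847, plus): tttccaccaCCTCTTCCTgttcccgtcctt
EIF3M (chr11:32605367-32605396, plus): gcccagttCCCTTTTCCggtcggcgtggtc
EIF2A (chr3:150264564-150264593, plus): cgagcggtttCTCTTTCCgggacaacatgg
EIF2S3 (chrX:24073063-24073092, plus): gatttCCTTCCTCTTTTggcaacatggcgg
EIF5B (chr2:99953842-99953871, plus): ctgagaactcacaccatatgtgtcctgttc
EIF4EBP2 (chr10:72163891-72163920, plus): gccttcgcccgcttccggtcgtcgtcgtcg
The first 6 hold a tract and the last 2 do not. These genes were chosen after their values were seen. By this search, on the gene's strand alone, 32.8% of 58 member promoters held a tract, against 20.8% of 35116 promoters in the table, and 19 member genes had at least 1 such promoter.

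Over the whole table, the FPKM values summed to 488036 in the control and to 537181 to 546239 in the siRNA libraries. The steps between low FPKM values gave approximate depths of 53800000 to 83100000 fragments, with si5 the deepest at 1.54 times the control. ZSCAN5A stood at 0.730 FPKM for si4, 0.713 for si5, 2.53 for si1 and 2.42 in the control, so that si4 left 30.2% and si5 left 29.5% of the control value. ZSCAN5B was at 0.0331, 0.0663, 0.0948 and 0.0903 FPKM in the same order. With its own siRNA it was at 105% of the control, but at levels far under 1 FPKM, so these libraries cannot show whether ZSCAN5B was knocked down, and si1 here stands for the library labelled as its knockdown. The paper reports ZSCAN5B lowered with si1 by qRT-PCR and Western blot. By its qRT-PCR the paralog ZSCAN5D was also lower with si4 and si5, and ZSCAN5B was higher with si4. Of 8 markers of HEK-293 cells, 7 were at 1 FPKM or above in every library, while all 3 blood and both liver markers were under 1. PAX2, the remaining HEK-293 marker, was at 1.16 FPKM in the control and 0.58 to 0.61 with siRNA. It was more than 1.5-fold lower in each siRNA library. Of 4 trophoblast markers, 3 were under 1 FPKM everywhere, and CGA stood at 2.82 in the control and 3.48 to 5.66 with siRNA. CGA was more than 1.5-fold higher with si5 (log2 ratio 0.78) and si1 (1.01) but not with si4 (0.30). There is 1 library per siRNA and a single control, which all comparisons share, so the ratios carry no p-value and a value peculiar to the control moves every ratio. In bulk RNA, fewer cells of a kind and less RNA per cell cannot be told apart.

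Initiation factor mRNAs were abundant and moved little. Of the 54 rows, 51 reached 1 FPKM in some library, while EIF1AY and the pseudogene EIF3IP1 were listed at 0 in every library and EIF4E1B, an oocyte form of the cap-binding protein, reached at most 0.00967 FPKM. EIF4A1, the RNA helicase of the cap-binding complex, was the most abundant member with 899 FPKM after si4, 826 after si5, 805 after si1 and 711 in the control. EIF3K, a small subunit of eIF3, came next, followed by EIF5A, which helps ribosomes through difficult stretches of peptide. At the low end of the expressed rows were EIF3CL, EIF5A2, EIF5AL1 and EIF4EBP3, all between 2.48 and 5.64 FPKM. Counting error was small beside this range, since the approximate error of a ratio to the control had a median of 1.42% over the 51 rows and was under 5% for 48 of them.

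**Figure D1:**
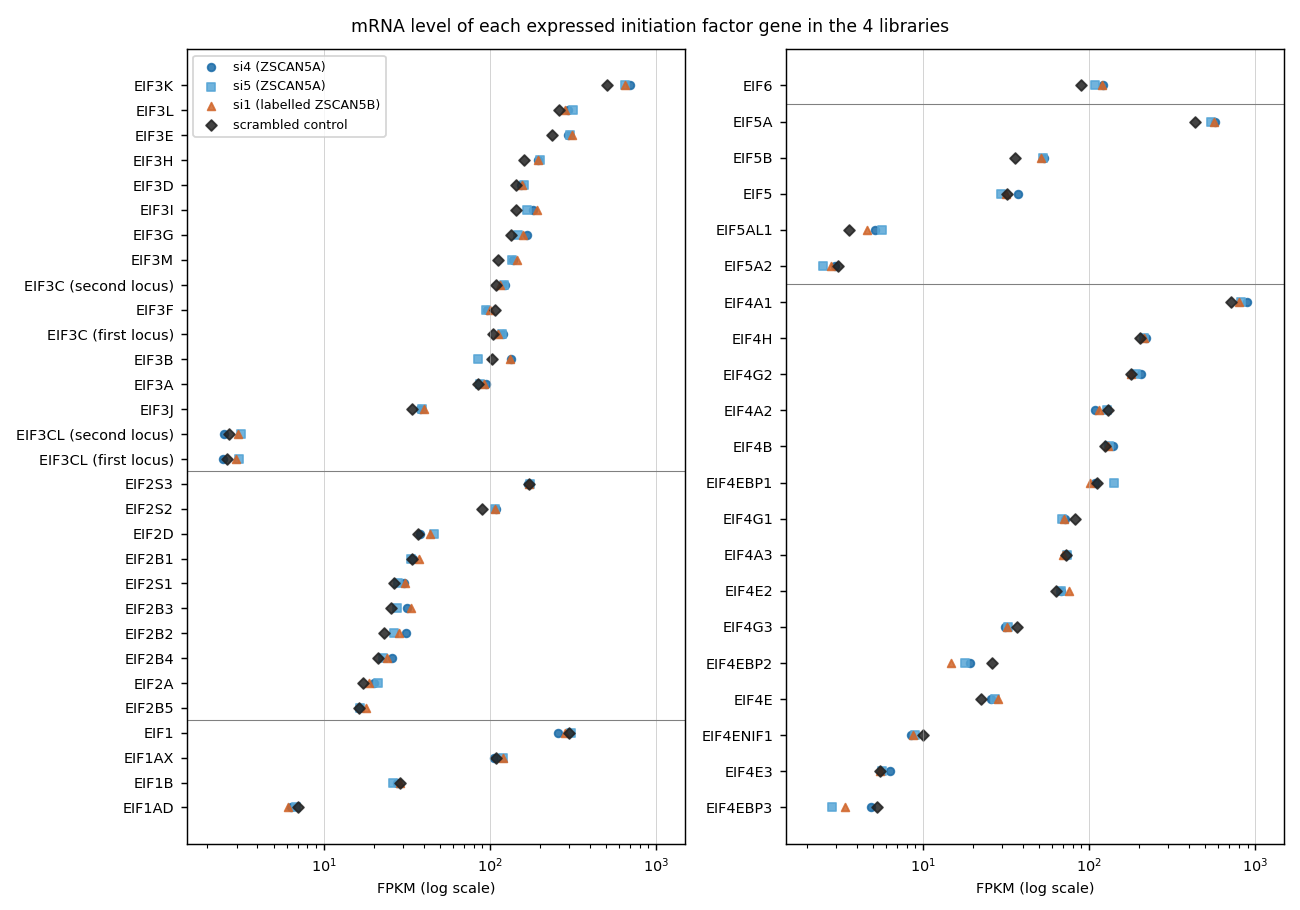
FPKM on a log scale for each of the 51 expressed initiation factor rows, by factor family, with 1 point per library. The control (diamonds) is the lowest of the 4 points in 28 rows and the highest in 9, and the range runs from 2.48 FPKM for EIF3CL to 899 for EIF4A1.

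Few members differed from the control by more than 1.5-fold, the limit used here for genes that reached 1 FPKM in a library compared. With the mean of si4 and si5, EIF5AL1 alone was past the limit upward (1.51-fold) and no member was past it downward, where 0.677% of 12993 expressed genes were past it upward and 3.11% downward. With si1, no member was past the limit upward and 2 were past it downward, EIF4EBP2 (0.57 of the control) and EIF4EBP3 (0.64), where the whole table gave 0.844% upward and 3.17% downward. With si4 alone no member passed in either direction, against 1.15% upward and 5.21% downward over all genes. With si5 alone EIF5AL1 passed upward and EIF4EBP3 downward, against 0.588% and 2.95%. The members' counts are near or below these shares, apart from the single upward call in 51, which is 1 gene.

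In direction, the members lay above the control more often than genes in general did. With si4 and si5, 39 of 51 rows were higher than the control, with a median log2 ratio of 0.14, where 46.7% of all expressed genes were higher with a median of -0.02. With si1, 35 of 51 were higher with a median of 0.13, where 48.5% of all genes were higher with a median of -0.01. The FPKM values summed to 488036 in the control and to 537181 to 546239 with siRNA. Dividing each library by its sum would therefore lower every siRNA ratio, for members and other genes alike, and was not among the alternatives tried. The ratios moved with expression level over the whole table, so that with si4 and si5 the median of all genes was -0.10 from 1 to 10 FPKM, 0.02 from 10 to 50, 0.14 from 50 to 200 and 0.24 at 200 FPKM or above. The members gave -0.01 over 8 rows, 0.17 over 15, 0.14 over 21 and 0.28 over 7 in the same ranges. After subtracting the median of genes of similar FPKM, a step chosen after seeing the data, 25 members stood higher and 26 lower with si4 and si5, and 26 higher and 25 lower with si1. Against genes of their own abundance the members were thus about evenly split.

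**Figure D2:**
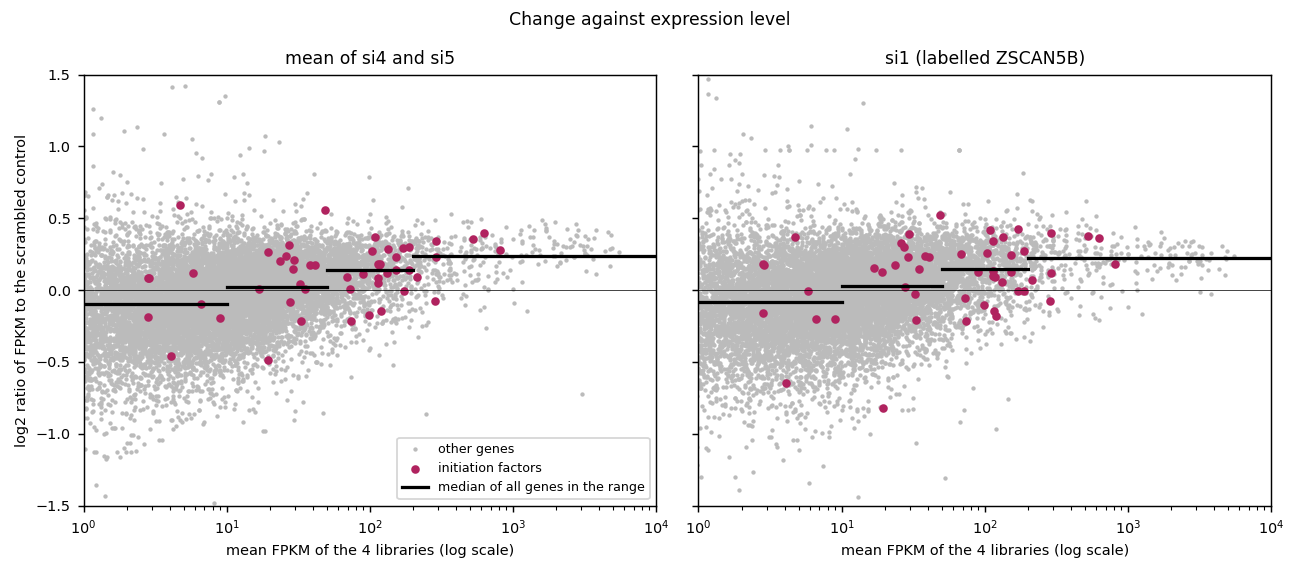
log2 ratio to the scrambled control against the mean FPKM of the 4 libraries on a log scale, for the mean of si4 and si5 on the left and si1 on the right, with initiation factors in dark red, other genes in grey and the median of all genes in each range as black bars. The bars climb from -0.10 to 0.24 with si4 and si5 and from -0.08 to 0.22 with si1, most members lie around them, and genes beyond the axes are not drawn.

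Transcript length moved with the ratios too. With si4 and si5 the median of all genes was 0.14 under 1500 nucleotides and -0.11 at 5000 or above, and the members gave 0.23 over 9 rows and -0.06 over 10. After subtracting the median of genes of similar length, 36 members stood higher and 14 lower with si4 and si5 (median log2 ratio 0.14), and 38 higher and 13 lower with si1 (median 0.12), so this step left the members mostly higher where the FPKM step did not.

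The families differed in where they lay. Members of eIF2 had a median log2 ratio of 0.19 with si4 and si5 and 0.20 with si1, and 9 of 10 were higher than the control in each, with EIF2S3 as the exception at -0.01 and -0.004, which turned to above 0 under median-ratio and upper-quartile scaling. Those of eIF3 had medians of 0.18 and 0.21, and 15 of 16 rows were higher in each, with EIF3F as the exception. Those of eIF4 had medians of 0.09 and -0.06, with 9 and 5 of 15 rows higher, and the first of these medians turned to -0.02 after subtracting genes of similar length and to -0.11 after subtracting genes of similar FPKM. After the FPKM step eIF2 kept medians of 0.12 and 0.14 with 8 and 9 of 10 rows higher, whereas eIF3 came to 0.05 and 0.11 with 10 of 16 higher in each. With si4 alone the medians were 0.21 for eIF2, 0.19 for eIF3 and 0.01 for eIF4, and with si5 alone 0.11, 0.21 and 0.04. The control was the lowest of the 4 libraries for 7 of 10 eIF2 rows and 12 of 16 eIF3 rows but for 5 of 15 eIF4 rows, and over all genes it was lowest for 30.1%. That share is not matched for abundance, as the eIF3 rows had a median of 126 FPKM against 9.79 over all genes. Of all genes from 50 to 200 FPKM, 78.1% were higher than the control with si4 and si5. Members of a family are not replicates, so the families are set side by side without a test.

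**Figure D3:**
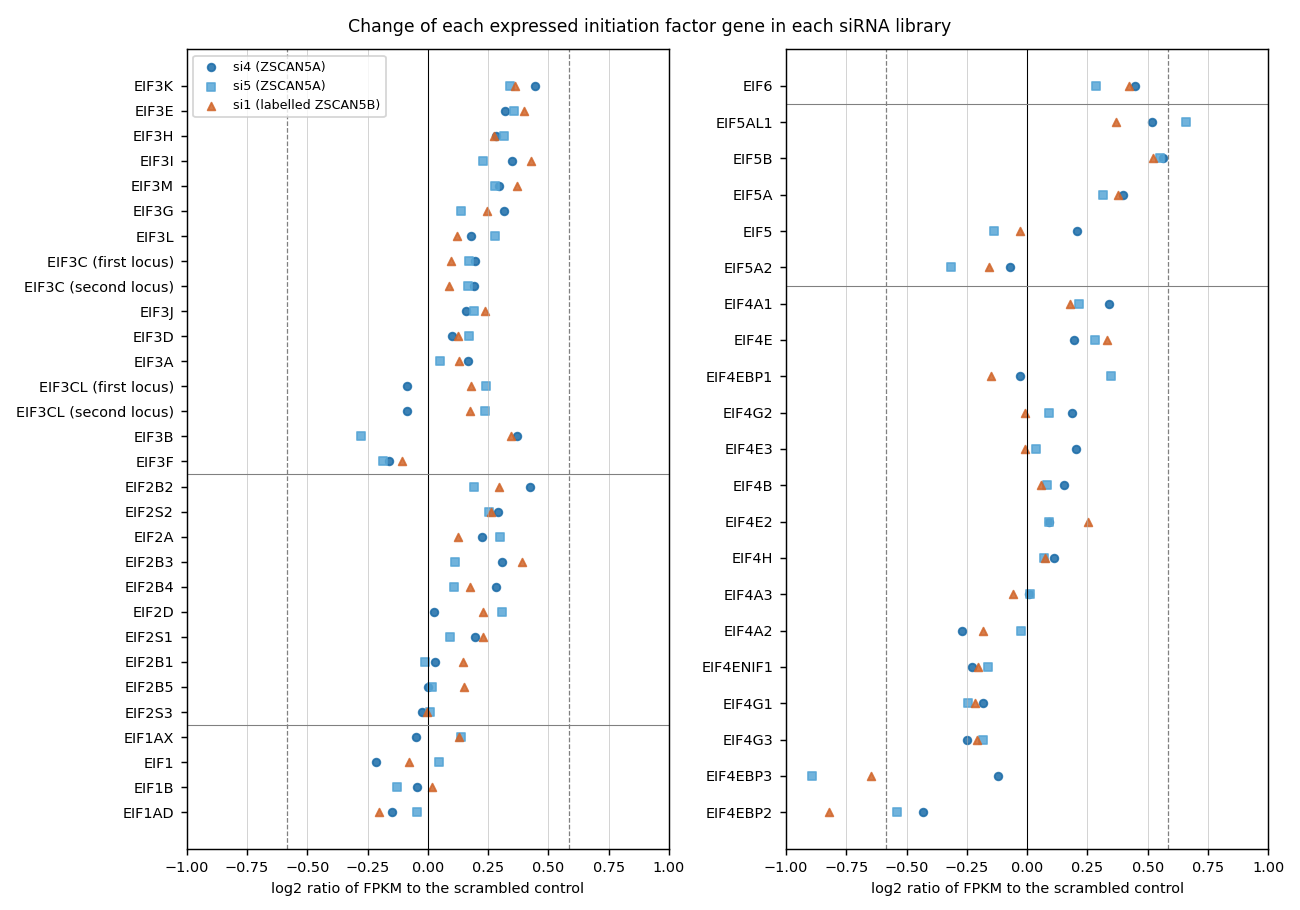
log2 ratio of FPKM to the scrambled control for each expressed row in the si4, si5 and si1 libraries, grouped by family, with dashed lines at the 1.5-fold limit. Right of 0 lie 13, 14 and 15 of the 16 eIF3 points and 8, 9 and 9 of the 10 eIF2 points for si4, si5 and si1, and the points furthest left are those of EIF4EBP3 with si5 (-0.89) and EIF4EBP2 with si1 (-0.82).

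In eIF2 itself the 3 subunits did not lie together. EIF2S2, the beta subunit, was at 109.8 FPKM under si4, 107.0 under si5, 107.6 under si1 and 89.8 in the control, so that all siRNA libraries were above the control by 0.25 to 0.29 on the log2 scale. EIF2S3, the gamma subunit that binds the initiator tRNA, was at 169.9, 174, 172 and 173 FPKM, with log2 ratios between -0.02 and 0.01. EIF2S1, the alpha subunit on which stress kinases act, was the least abundant at 30.3, 28.2, 31.0 and 26.5 FPKM. The ratio of EIF2S3 to EIF2S1 was accordingly 6.52 in the control and 5.55 to 6.16 in the siRNA libraries.

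All 5 subunits of eIF2B, the exchange factor that recharges eIF2, were above the control in both comparisons, by 0.01 to 0.31 with si4 and si5 and by 0.14 to 0.39 with si1 on the log2 scale. EIF2B2 was the furthest above with the ZSCAN5A siRNAs at 31.1 FPKM under si4 and 26.5 under si5, against 23.2 in the control and 28.5 with si1. EIF2B3 was furthest with si1, at 33.6 FPKM against 25.6 in the control, with 31.6 for si4 and 27.7 for si5. EIF2B1 and EIF2B5, of which the latter carries the catalytic site, lay within 0.03 of the control with si4 and with si5. The levels of the 5 subunits lay close, with the highest 2.04 to 2.13 times the lowest in every library, and EIF2B5 was the lowest in each. EIF2A and EIF2D, which can bring initiator tRNA to ribosomes without eIF2, were above the control with log2 ratios of 0.26 and 0.17 with si4 and si5 and 0.13 and 0.23 with si1. For EIF2D the si4 and si5 libraries differed (37.8 and 45.9 FPKM, against 37.1 in the control).

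The eIF3 subunits spanned a wide range of abundance. In the control EIF3K was at 511 FPKM and EIF3J, a loosely held subunit, at 34.2, a ratio of 14.9, and in the siRNA libraries this ratio was 16.2 to 18.2. EIF3K was at 697 FPKM under si4, 648 under si5 and 656 under si1, so that its log2 ratio to the control was 0.34 to 0.45 in the 3 libraries and its place among all expressed genes was percentile 97.5 with si4 and si5. That percentile is not matched for abundance, and at 200 FPKM or above 90.5% of all genes were higher in this comparison. EIF3E, EIF3H and EIF3M, which belong with EIF3K to the core of the complex, were likewise higher than the control in each siRNA library, by 0.27 to 0.40 on the log2 scale. EIF3M, for instance, was at 138 FPKM for si4, 137 for si5, 146 for si1 and 113 in the control.

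EIF3F, another core subunit, lay the other way at 96.0 FPKM under si4, 94.6 under si5 and 99.9 under si1, against 107.5 in the control. Its log2 ratio was -0.17 with si4 and si5 and -0.11 with si1, which does not reach the limit. EIF3I and EIF3G, which attach to the RNA-binding scaffold EIF3B, were higher than the control in each library, EIF3I with 182, 168, 193 and 143 FPKM and EIF3G with 167, 148, 159 and 134 FPKM in the order si4, si5, si1 and control. EIF3B itself was split between the 2 ZSCAN5A siRNAs, with 134 FPKM for si4 and 85.6 for si5, and stood at 132 with si1 and 104 in the control. The si5 value was thus the lowest of the 4 and the si4 value the highest. The larger core subunits EIF3A and EIF3C and the subunit EIF3D, which can itself touch the cap of some mRNAs, were nearer to the control with log2 ratios of 0.11 to 0.18 with si4 and si5. EIF3L and EIF3J gave 0.23 and 0.18.

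EIF3C stood on 2 rows with 120.4 and 124 FPKM with si4 and 105 and 109 in the control. EIF3CL, a nearly identical gene at 2.48 to 3.17 FPKM, matches the EIF3C transcript at 99.9% of 2913 aligned bases. Its rows overlap those of EIF3C, so the split of reads between them is uncertain. With each eIF3 symbol counted once, 13 of 14 were higher than the control in both comparisons.

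At the cap, EIF4E, the cap-binding protein, was above the control in each library, with 25.7 FPKM for si4, 27.2 for si5, 28.1 for si1 and 22.4 in the control. EIF4E2, a cap-binding relative that can repress translation, was at 67.9 FPKM with both si4 and si5, 75.8 with si1 and 63.7 in the control. The scaffolds that join the cap-binding protein to eIF3 were below the control. EIF4G1 was at 72.2 FPKM after si4, 69.2 after si5, 70.5 after si1 and 82.0 in the control, and EIF4G3 at 31.1, 32.5, 32.0 and 37.0. Both had a log2 ratio of -0.22 with si4 and si5, with an SD of 0.04 between the 2 siRNAs for each, and of -0.22 and -0.21 with si1. EIF4G2, a relative that lacks the binding site for EIF4E, was at 204 FPKM under si4, 191 under si5, 178.7 under si1 and 179.6 in the control. The ratio of EIF4G1 to EIF4E was 3.66 in the control and 2.51 to 2.81 in the siRNA libraries, and that of EIF4G2 to EIF4G1 was 2.19 in the control and 2.53 to 2.83 with siRNA.

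Of the 2 helicase paralogs of the cap complex, EIF4A1 was above the control in each library, by 0.34 under si4, 0.22 under si5 and 0.18 under si1 on the log2 scale. EIF4A2 lay below it, at 108 FPKM under si4, 128 under si5 and 115 under si1, against 131 in the control. The ratio of EIF4A1 to EIF4A2 was 5.45 in the control, 8.30 under si4, 6.44 under si5 and 6.99 under si1. EIF4A3, which works in the exon junction complex, was at 73.3, 73.4, 70.0 and 72.8 FPKM in the order si4, si5, si1 and control. The helicase stimulators EIF4B and EIF4H were near the control, with log2 ratios of 0.12 and 0.09 with si4 and si5 and 0.06 and 0.07 with si1.

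The repressors of the cap-binding protein held the 2 members past the limit with si1. EIF4EBP2 (chr10:72163861-72188374 of GRCh37, plus strand) was at 19.2 FPKM for si4, 17.9 for si5, 14.7 for si1 and 26.0 in the control, so that the control was the highest library and si1 the lowest. It stayed past the limit with si1 with a pseudocount of 1 (-0.78) and after the FPKM step (-0.85), where EIF4EBP3 did not (-0.52 and -0.55). The log2 ratio of EIF4EBP2 was -0.43 with si4, -0.54 with si5 and -0.82 with si1, which placed it at percentile 5.33 of all genes with si4 and si5 and 0.828 with si1. EIF4EBP3 (chr5:139927251-139929163, plus strand) was at 4.87, 2.85, 3.38 and 5.30 FPKM, again highest in the control, but si4 and si5 differed from each other by 0.77 on the log2 scale. About 198 fragments lay behind its control value, which gives a counting error of about 11.3% for its ratio, the largest among the members. It shares its locus with the read-through gene ANKHD1-EIF4EBP3, listed at 5.63, 6.20, 4.79 and 5.04 FPKM, so the assignment of reads is uncertain there.

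EIF4EBP1, the most abundant of the repressors, was split between the siRNAs, with 109 FPKM for si4, 142 for si5, 101 for si1 and 112 in the control. EIF4ENIF1, which carries the cap-binding protein into the nucleus, was at 8.51, 8.92, 8.67 and 9.97 FPKM and so below the control in each library, by 0.16 to 0.23 on the log2 scale. Summed over the 3 repressors, there were 6.39 FPKM per FPKM of EIF4E in the control, against 5.20 under si4, 5.99 under si5 and 4.23 under si1. EIF4EBP2 alone gave 1.16 in the control and 0.75, 0.657 and 0.522 with si4, si5 and si1, and EIF4EBP1 alone 4.99 in the control and 4.26, 5.23 and 3.58. These ratios are within a library, so scaling between libraries does not touch them. Over the whole table, however, ratios to the control varied with FPKM and transcript length, and the paired genes differ in these. The transcript of EIF4EBP2 has 7491 nucleotides and that of EIF4E 2427, and in the control EIF4A1 stood at 711 FPKM and EIF4A2 at 131. Whether this plays a part in the within-library ratios was not tested.

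**Figure D4:**
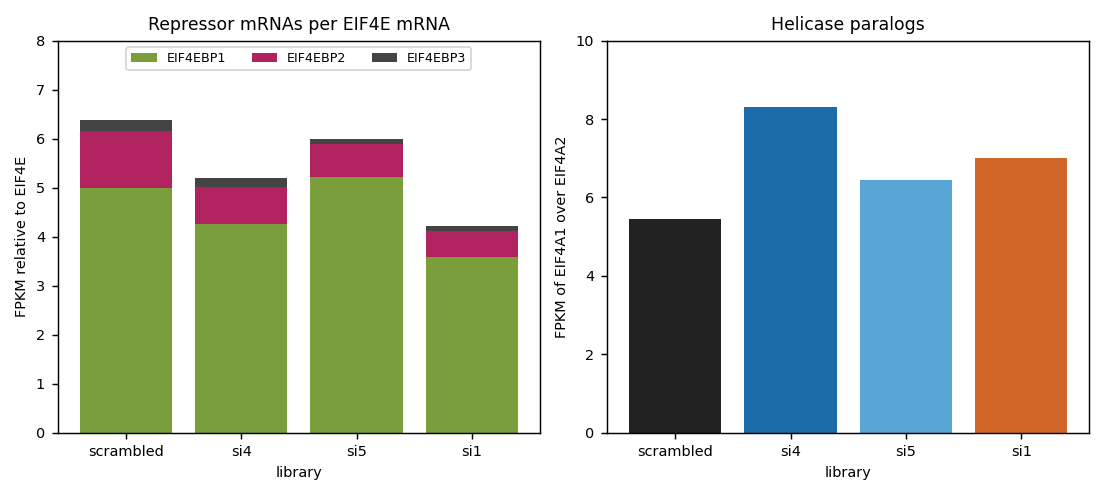
Left, FPKM of the 3 eIF4E-binding protein genes relative to EIF4E in each library, stacked, and right, the ratio of the FPKM of EIF4A1 to EIF4A2. The stack is highest in the scrambled control (6.39) and lowest with si1 (4.23), and the helicase ratio is lowest in the control (5.45) and highest with si4 (8.30), each bar standing for 1 library.

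Seed sites were compared with the ratios of the same siRNA. Over expressed genes with a 3′ UTR, the median log2 ratio was -0.29 for 370 genes with an si4 site and -0.01 for 10378 without, -0.10 and -0.02 for si5, and -0.06 and 0.01 for si1. Genes with a site had longer 3′ UTRs, with medians of 3142 to 3410 bases against 1029 to 1365 without, and ratios fell with transcript length over all genes. After subtracting the median of genes of similar 3′ UTR length, a step chosen after seeing the data, genes with a site stood at -0.23 for si4, -0.04 for si5 and -0.01 for si1, and those without at 0.00 for each. Among the members the 11 genes with an si1 site had a median of 0.13 with si1 and the 38 without one 0.16, and the 7 with an si5 site had 0.05 with si5 against 0.12 without. The 3 members with an si4 site, EIF3E, EIF3M and EIF5AL1, were all above the control with si4 (log2 ratios of 0.32, 0.29 and 0.52). Some sites lie outside the locus listed with the gene's FPKM, because the 3′ UTRs come from another annotation. They include the si4 site of EIF3M (from 32625968, where the locus ends at 32624037) and every site of EIF3F and EIF4E3. EIF4EBP3, with a 3′ UTR of 314 bases, held none of the 3 sites. EIF4EBP2 had no si4 site and was below the control with si4 as well. Whether a seed plays a part in any member's value was not tested.

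At the joining step, EIF5B (chr2:99953834-100016728, plus strand), the GTPase that brings the large ribosomal subunit in, had the highest log2 ratio of any member with si1 and the second highest, after EIF5AL1, with si4 and si5. It was at 53.2 FPKM after si4, 52.8 after si5, 51.8 after si1 and 36.0 in the control, so the siRNA libraries lay close together and well above the control. The log2 ratio was 0.56 with si4 and si5 (SD 0.01, n = 2) and 0.52 with si1, or 1.47-fold and 1.44-fold, just short of the limit, at percentiles 99.2 and 98.8 of all genes. After subtracting genes of similar transcript length EIF5B passed the limit in both comparisons (0.67 and 0.61). Under median-ratio scaling it passed with si4 and si5 (0.60). EIF6, which keeps the large subunit from joining too early, was at 121 FPKM under si4, 109 under si5 and 119 under si1, against 89.0 in the control. EIF5, which makes eIF2 hydrolyse its GTP, had no common direction, with 37.3, 29.4, 31.7 and 32.3 FPKM.

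EIF5A was at 572 FPKM under si4, 540.5 under si5, 565 under si1 and 435 in the control, a log2 ratio of 0.36 with si4 and si5 and 0.38 with si1. EIF5AL1 (chr10:81272357-81276192, plus strand), the member past the limit with si4 and si5, was at 5.12 FPKM for si4, 5.64 for si5, 4.61 for si1 and 3.57 in the control. It is a near copy of EIF5A, with 97.5% identity over 1218 aligned bases of transcript, and it stood at a level 95.8 to 122.5 times below that of EIF5A, so reads of EIF5A that were assigned to it cannot be told apart from its own. With a pseudocount of 1 its log2 ratio of 0.59 with si4 and si5 became 0.48, which is not past the limit, and si4 alone gave 0.52. EIF5A2, the other paralog, was at 2.96, 2.50, 2.78 and 3.10 FPKM and so below the control in each library, and the ratio of EIF5A to EIF5A2 was 140.1 in the control and 193.6 to 216.4 with siRNA.

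All 4 expressed start selection factors lay below the control with si4, and 2 of the 4 with si5 and with si1. EIF1 was at 257 FPKM after si4, 308 after si5, 283 after si1 and 298 in the control, with a log2 ratio of -0.22 for si4, 0.05 for si5 and -0.08 for si1. EIF1AX, which encodes eIF1A, was at 106, 120.5, 120.0 and 109.6 FPKM. EIF1B, a paralog of EIF1, and EIF1AD, a nuclear relative of eIF1A, had log2 ratios of -0.09 and -0.10 with si4 and si5 and of 0.02 and -0.20 with si1. The row of EIF1AD overlaps that of BANF1, at 74.9 FPKM in the control and 115 to 116 with siRNA, and whether the counting used strand is not given in the sources used here. The median over these 4 genes was -0.08 with si4 and si5 and -0.03 with si1.

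Both ZSCAN5A siRNAs gave the members values about as close to each other as those of genes in general. The median absolute log2 ratio of si5 to si4 was 0.10 over the 51 rows and 0.11 over 12800 genes. EIF3B and EIF4EBP3 alone differed by more than 1.5-fold between them (3.92% of members), where 2.53% of genes did.

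Start tracts were set beside the ratios. The 18 expressed genes with a tract had a median log2 ratio of 0.11 with si4 and si5 and 0.10 with si1, and the 23 matched genes without a tract had 0.12 and 0.14. Within families the medians differed in both directions, on few genes each. With si4 and si5, the 4 eIF2 genes with a tract had 0.09 and the 5 without 0.20, the 5 eIF3 genes with a tract 0.18 and the 3 without 0.18, and the 6 eIF4 genes with a tract 0.09 and the 8 without -0.09. With si1 the eIF2 genes gave 0.14 and 0.23, the eIF3 genes 0.24 and 0.34 and the eIF4 genes 0.02 and -0.13. Both EIF3K, among the highest, and EIF3F, the single eIF3 row below the control both with the mean of si4 and si5 and with si1, carry a tract in the lines above, and EIF5B does not.

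Other genes of the pathway were taken from 2 lists. The first holds 31 regulators of initiation, such as the eIF2 kinases, the growth kinase complex around MTOR and the poly(A)-binding proteins. Of these, 15 were higher and 16 lower than the control in each comparison, with medians of -0.04 with si4 and si5 and -0.02 with si1, and none was past the limit in either direction. With si4 alone, PPP1R15B, a subunit of the phosphatase that restores eIF2, was past it downward at 11.7 FPKM against 19.9 in the control (log2 ratio -0.76), while si5 gave 17.7 and si1 15.0, and it is named here after its values were seen. With si4, 5.21% of all genes were past the limit downward. The second holds 16 genes of elongation and termination, of which 12 were higher with si4 and si5 and 14 with si1, with medians of 0.15 and 0.10. Over all expressed genes 46.7% and 48.5% were higher. At 200 FPKM or above, where EEF1A1, EEF1B2, EEF1G and EEF2 lie, 90.5% and 88.6% of all genes were higher. EEF2K, the kinase that slows elongation, was past the limit downward with si4 and si5 at 4.89 and 5.89 FPKM against 8.24 in the control, and was at 5.60 with si1. In that comparison of si4 and si5, 3.11% of all genes were past it downward. EEF1A1, the main elongation factor, was at 4374 FPKM with si4, 4161 with si1 and 3614 in the control but is listed at 0 with si5, so its place past the limit downward rests on that 0 alone.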

How the data were processed

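RNA was measured in 4 libraries of HEK-293 cells, 1 per siRNA and 1 scrambled control, so no spread between replicates exists and the SD of si4 and si5 stands for 2 siRNAs to 1 gene. The authors deposited 1 table of FPKM values on hg19 (GRCh37), and the submitters' processing notes name CASAVA 1.8.2, Trimmomatic 0.30, TopHat2 2.1.0 and Cufflinks 2.2.1. The gene annotation is not given in the sources used here, and the labels and the methods name different stranded mRNA kits. The table holds 0 other columns of per-sample values. FPKM values were used as deposited, without a pseudocount.

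The mean of si4 and si5, and si1, were divided by the control. Genes needed 1 FPKM in a library of the comparison and no side at 0, and a ratio above 1.5-fold counted as past the limit. No p-value was computed for the main values. Depth was estimated from the steps between FPKM values under 0.1, where 72.8% of 1745 genes stood in whole-number proportion within 0.2%, and counting errors cover fragments alone. Every member could be named, and genes of other lists where they passed the limit. Members and lists were chosen with earlier results of these data known.

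Transcripts and 3′ UTRs came from GENCODE lifted to GRCh37, with a transcript length for 86.2% of expressed rows, and promoters from RefSeq. Python 3.11.15, NumPy 2.4.6, pandas 2.3.3, matplotlib 3.10.9, BLAST+ 2.17.0 and, for 1 alternative, limma 3.58.1 in R 4.3.3 were used. The fold rule and limma were tested on simulated data. Alternatives covered the expression limit, pseudocount, median-ratio and upper-quartile scaling, shared symbols, transcript length, expression level, the fold limit, each siRNA alone and limma. ChIP-seq was not analysed here.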

Additional observations from a re-analysis of the deposited data

Results flagged for a closer look

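In 4 genes the si1 library lay on the other side of the control from both ZSCAN5A libraries, and in none of them was the difference tested, since each siRNA has 1 library. The share of all genes with such a split is not given here, so nothing particular to these genes is drawn from it. EIF1B had a log2 ratio of 0.0189 with si1, where si4 gave -0.04 and si5 -0.13. EIF4A3 had -0.0566 with si1, where si4 gave 0.01 and si5 0.01. EIF4E3, a cap-binding relative, had -0.00683 with si1, where si4 gave 0.20 and si5 0.04. EIF4G2 had -0.00729 with si1, where si4 gave 0.19 and si5 0.09. The si1 values of EIF4E3 and EIF4G2 turned to above 0 under median-ratio and upper-quartile scaling.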

How the results depend on the processing

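With 1 library per siRNA and a shared control, the spread between replicates could not be measured. Counting error was under 5% for 48 of 51 members but covers fragments alone. Leaving out 1 siRNA shows how far the 2 ZSCAN5A siRNAs differ and leaves the control unchanged. The single member past the limit with si4 and si5 became 2 without an expression limit (with EIF4E1B, near 0 FPKM). Under median-ratio scaling it also became 2 (with EIF5B). After subtracting genes of similar transcript length it became 3 (2 higher, 1 lower), with EIF5B upward and EIF4EBP3 downward at -0.65. The count was 0 with a pseudocount of 1 (without EIF5AL1), 0 at 2-fold and 0 to 2 with either siRNA alone. At a lower limit of 0.32 on the log2 scale it was 8 (6 higher, 2 lower). limma on log2(FPKM + 1) called 0 of 51 members at an adjusted p under 0.05, where it called 10 of 13044 genes, and 12 of 51 members and 1674 of all genes were at an unadjusted p under 0.05. The lone control is assumed there to vary like the siRNA libraries, the spread is that of 2 different siRNAs, and nothing is drawn from these p-values. The 2 members past the limit with si1 became 1 with a pseudocount of 1 and 1 after subtracting genes of similar FPKM (chosen after seeing the data), without EIF4EBP3 in both, 3 (1 higher, 2 lower) after subtracting genes of similar length, 13 (11 higher, 2 lower) at the lower limit and 0 at 2-fold. At the lower limit 5.14% of all genes were past it upward and 13.4% downward with si4 and si5, and 6.70% and 12.8% with si1.

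The eIF2 median of 0.19 with si4 and si5 was 0.11 to 0.21 with either siRNA alone. The eIF3 median of 0.18 was 0.206 at a limit of 5 FPKM, 0.22 under median-ratio and 0.206 under upper-quartile scaling, 0.229 without shared symbols, 0.199 after the length step, 0.053 after the FPKM step and 0.193 to 0.211 with either siRNA alone. The eIF4 median of 0.09 was 0.050 without an expression limit, 0.129 under median-ratio and 0.114 under upper-quartile scaling and 0.0082 to 0.036 with either siRNA alone, and it reversed to -0.021 after the length step and -0.114 after the FPKM step. With si1 the eIF3 median of 0.21 was 0.243 at 5 FPKM, 0.183 with a pseudocount of 1, 0.232 under median-ratio scaling, 0.259 without shared symbols, 0.168 after the length step and 0.108 after the FPKM step, and the eIF4 median of -0.06 was -0.034 under median-ratio scaling, -0.082 after the length step and -0.200 after the FPKM step. The cause of these shifts was not tested. Of the values for single genes, 264 moved by less than the spread between si4 and si5 and 42 by more. No paired analysis was possible because each group holds a single library or 2 different siRNAs.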
